A study of Mus musculus with 2 samples.

Results

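Transfer RNA (tRNA) genes are short genes copied by RNA polymerase III. The members described here are the 403 nuclear tRNA genes that the RefSeq annotation of GRCm38.p6 places on chromosomes 1 to 19 and X, each taken with 500 bp on either side. The annotation lists 445 tRNA entries in all, of which 22 are mitochondrial and 20 lie on other sequences, and these were not members. The genes had a median length of 72 bp, which gave windows with a median of 1072 bp. They fell into 20 amino acid families and 48 groups of family and anticodon, and held 221 distinct sequences. The rule that chose them uses the annotation and no measured value, although earlier results of these data were known when it was set.

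DNase-seq maps chromatin that the nuclease DNase I can cut. It was measured in 2 libraries of whole thymus tissue from male B6CASTF1/J mice aged 36 days, F1 hybrids from The Jackson Laboratory. The libraries form 1 group, are labelled biological replicates 1 and 2, and carry the biobank names Male 05 and Male 06, although both carry the same donor identifier. They are called library 1 and library 2 below. For each library the authors deposited a shorter and a longer peak list, a footprint list and a table of intervals with a false discovery rate (FDR), all on mm10. The reads of both parental genomes were thus read on a single assembly.

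Library 1, labelled replicate 1, goes against its thymus label, and every statement on it below is on the library so labelled. A gene counted as open here when a peak of the shorter list lay at most 1 kb from one of its transcript starts. Of 15 thymocyte marker genes, 2 were open in library 1 (Lck and Tcf7) and 15 in library 2, there with signals from 1.92 to 11.8. The defining genes Cd3e, Cd4, Cd8a, Rag1 and Rag2 had no peak in library 1. Of 15 markers of pancreatic acinar cells, 15 and 5 were open, in library 1 with signals from 2.59 to 8.54 and in library 2 from 0.424 to 5.10, and of 6 liver markers 4 and 1. Over all 21728 protein-coding genes the open shares were 63.6% and 60.5%, and 57.1% in both. B cell markers stood at 2 of 5 in each library, and thymic epithelium markers at 3 of 6 and 2 of 6, with Foxn1 and Psmb11 closed in both libraries. The main counts below are therefore given for each library as well as for both, and the breakdowns by family, anticodon, sequence and cluster mostly for both. The shorter lists held 85367 and 60644 peaks. Depth is unknown, since the files used here give no read totals. With 1 group of 2 libraries no test was possible, and all values are descriptions. In whole tissue, fewer cells with an open site and a less open site in each cell cannot be told apart.

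Most tRNA genes carry their promoter inside the transcribed sequence, as an A box near the start and a B box near the end. The factor TFIIIC binds the B box and the A box and brings in TFIIIB, which sits just before the gene and recruits the polymerase. A run of T after the gene ends transcription. Many mouse tRNA genes are present as identical copies, often in clusters, and such copies can differ in whether they are used.

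Sequences of 8 genes show where these elements lie. They are the gene with 50 bp before it and 20 bp after it, 5′ to 3′ on the gene's strand, from GRCm38.p6. Capitals mark the best match to a consensus of the A box (up to 3 mismatches), the best match to a consensus of the B box (up to 2 mismatches) and, where present, a run of at least 4 T after the gene. The matches were sought on the gene's own strand only. The first 3 genes had the highest mean over the libraries of the percentile of their strongest peak, with 1 gene taken per shared peak.
n-TStga3 (chr10:63429456-63429607, minus strand): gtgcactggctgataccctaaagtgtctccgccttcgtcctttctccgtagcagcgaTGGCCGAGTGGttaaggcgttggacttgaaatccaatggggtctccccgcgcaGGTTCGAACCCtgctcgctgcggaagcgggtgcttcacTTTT
n-TLaag4 (chr7:120917467-120917618, plus strand): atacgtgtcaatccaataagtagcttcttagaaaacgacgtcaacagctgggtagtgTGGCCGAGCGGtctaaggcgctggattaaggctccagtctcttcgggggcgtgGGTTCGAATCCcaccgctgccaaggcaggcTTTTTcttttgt
n-TWcca2 (chr10:91181392-91181533, minus strand): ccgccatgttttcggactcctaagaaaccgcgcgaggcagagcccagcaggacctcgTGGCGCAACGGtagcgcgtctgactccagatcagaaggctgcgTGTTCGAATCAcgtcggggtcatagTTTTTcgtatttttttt

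A second set holds the gene with the strongest peak in each library that had none in either list of the other. n-TPagg6 was open in library 1, and n-TRtct3, which has an intron, in library 2. The gene n-TSgga1, annotated as serine like n-TStga3 but 73 bp long against 82 bp, had no peak in any list.
n-TPagg6 (chr6:29388774-29388915, plus strand): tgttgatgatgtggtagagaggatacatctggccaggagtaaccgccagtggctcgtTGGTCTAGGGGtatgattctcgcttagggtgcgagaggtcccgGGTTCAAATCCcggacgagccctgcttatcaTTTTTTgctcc
n-TRtct3 (chr13:21917142-21917297, minus strand): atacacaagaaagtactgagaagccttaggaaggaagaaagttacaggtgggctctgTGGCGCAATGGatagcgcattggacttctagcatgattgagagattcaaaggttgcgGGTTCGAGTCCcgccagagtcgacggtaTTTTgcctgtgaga
n-TSgga1 (chr11:100538108-100538250, plus strand): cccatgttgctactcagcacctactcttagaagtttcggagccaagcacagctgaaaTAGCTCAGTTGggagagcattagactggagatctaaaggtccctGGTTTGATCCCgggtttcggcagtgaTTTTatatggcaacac

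The last pair, chosen after its values were seen, are histidine genes with the same gene sequence and different flanks. n-THgtg5 was open in both libraries and n-THgtg6 had no peak, footprint or FDR interval in either.
n-THgtg5 (chr2:122377918-122378059, plus strand): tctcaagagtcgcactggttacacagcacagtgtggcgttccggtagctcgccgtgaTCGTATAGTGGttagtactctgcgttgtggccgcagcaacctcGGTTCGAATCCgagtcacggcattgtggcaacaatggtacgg
n-THgtg6 (chr3:96410019-96410160, plus strand): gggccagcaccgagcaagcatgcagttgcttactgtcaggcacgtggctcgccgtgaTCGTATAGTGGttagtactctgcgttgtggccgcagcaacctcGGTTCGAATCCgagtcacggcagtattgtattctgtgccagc

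The B box was a selective match and the A box was not. A B box match was found in 363 of 403 tRNA genes (90.1%) and in 0.878% of 2391 stretches of genome sequence of the median gene length. An A box match was found in all 403 genes, but also in 39.6% of those stretches. The A box began at position 8 of the gene in 386 genes, counting the first base of the gene as 1. The most frequent start of the B box was position 51, in 163 genes. A TTTT run lay within 20 bp after 81.1% of the genes, against 13.3% of genome sequence, and within 100 bp after 92.1%, against 46.0%.

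The first question was how many tRNA genes lay in open chromatin. A gene was called open when a peak of the shorter list overlapped its window by at least 1 bp. In library 1, 230 of 403 tRNA genes (57.1%) were open, and in library 2, 225 (55.8%). Both libraries had a peak at 213 genes (52.9%). Genome tiles of 1072 bp had a peak in 3.36% and 2.47% of cases, and in both libraries in 1.58%. Windows of that length around the 5′ ends of 21755 protein-coding genes had one in 57.2% and 53.8%, and in both in 50.4%. The share for tRNA genes was thus close to that for protein-coding 5′ ends in each library.

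A total of 161 tRNA genes were open in neither library. The longer lists opened few more, with 246 (61.0%), 238 (59.1%) and 226 in both (56.1%). With these lists, tiles stood at 4.81%, 3.48% and 2.05%, and protein-coding 5′ ends at 61.1%, 58.2% and 54.4%. A footprint is a short stretch protected from cutting. One lay in the window of 244 (60.5%) and 236 genes (58.6%), and in both libraries of 224 (55.6%). For tiles the footprint shares were 3.65%, 2.91% and 1.71%, and for protein-coding 5′ ends 58.0%, 56.1% and 52.0%. An FDR interval lay in the window of 252 (62.5%) and 242 genes, and in both libraries of 231 (57.3%). For tiles these shares were 5.74%, 4.09% and 2.49%, and for protein-coding 5′ ends 62.4%, 59.5% and 55.9%. All of these shares for tRNA genes lay near those of protein-coding 5′ ends. Of the 403 genes, 140 (34.7%) had no peak in any list, no footprint and no FDR interval in either library.

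The 2 libraries shared most of their open tRNA genes. The 213 shared genes made up 92.6% of those open in library 1 and 94.7% of those open in library 2. For open genome tiles the shares were 47.1% and 64.0%, and for open protein-coding 5′ ends 88.2% and 93.7%. A peak in library 1 alone was found at 17 tRNA genes (4.22%), against 6.72% of protein-coding 5′ ends and 1.77% of tiles. Library 2 alone had a peak at 12 (2.98%), against 3.37% and 0.891%. The shared and unshared proportions of tRNA genes thus lay near those of protein-coding 5′ ends in general.

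The peaks at tRNA genes ranked high within each list. The deposited peak signal, in the authors' units, was read for the strongest peak in each window. Among open genes it ranged from 0.612 to 13.2 with a median of 4.74 in library 1, where all peaks had a median of 1.28. It ranged from 0.532 to 24.6 with a median of 6.93 in library 2, where all peaks had a median of 1.71. As a percentile of all peaks of the same list, the median was 89.7 and 85.9. Protein-coding 5′ ends with a peak had medians of 89.5 and 88.0. Taking the strongest of several peaks raises both.

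Genes that were strong in one library were mostly strong in the other. Over the 213 genes open in both libraries, Spearman's rho between the signals was 0.813, and 0.819 over the 167 that remained when genes sharing a peak were counted once. Both libraries share the genome sequence and its repeats, so this describes the genes and tests nothing. The signal was higher in library 2 at 177 of the 213, with a median ratio of 1.46 and a range of 0.255 to 4.46. As the signal's scaling was not given in the sources used here, this ratio is not a difference in openness. In the plot of signal in one library against the other, genes near protein-coding starts lie toward the upper right.

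**Figure D1:**
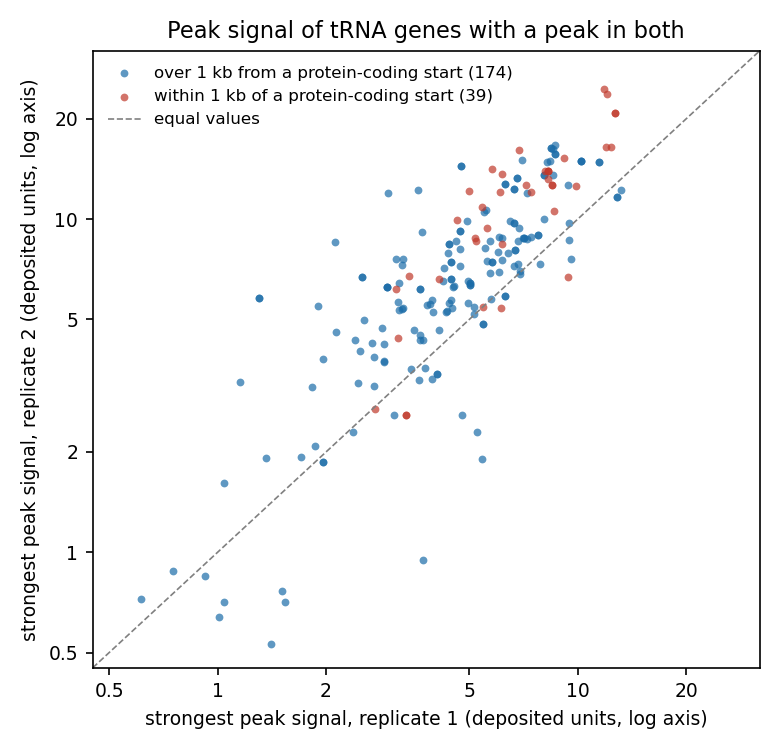
Deposited signal of the strongest peak in the window of each tRNA gene open in both libraries (213 points), replicate 1 on the horizontal and replicate 2 on the vertical axis, both logarithmic. Red points are the 39 genes within 1 kb of a protein-coding start, blue points the other 174, and the dashed line marks equal values; 177 points lie above it.

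The 5 tRNA genes with the highest mean percentile over both libraries, with 1 gene taken per shared peak, all lay between genes and within 1 kb of a protein-coding start. In a single library other genes could rank higher, up to the highest signal of 13.2 in library 1. n-TStga3, a serine tRNA gene, lay 541 bp from the start of the catenin gene Ctnna3 and had signals of 11.8 and 24.6 in libraries 1 and 2. n-TLaag4, a leucine gene, lay 146 bp from Polr3e, which encodes a subunit of RNA polymerase III itself, and had 12.0 and 23.7. That peak was also the strongest within 1 kb of a Polr3e start, so the 2 genes share the value. The tryptophan gene n-TWcca2 lay 97 bp from Tmpo, a gene of the nuclear lamina, and had 12.7 and 20.8. Its strongest peak was centred at -307.5 and -317.5 bp from the start of the tRNA gene. n-TRacg6, an arginine gene, lay 171 bp from the arginine methyltransferase gene Prmt5 (12.4 and 16.4). n-TRtcg5, also arginine, lay 57 bp from Polg, the gene of the mitochondrial DNA polymerase (11.9 and 16.5). All 5 ranked near the top of their lists, with percentiles from 99.7 to 99.8 in library 1 and from 97.2 to 99.5 in library 2.

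A peak near a protein-coding start may belong to that start, so the genes were divided. Of 44 tRNA genes within 1 kb of one, 40 were open in each library and 39 in both (88.6%). Of the other 359, 190 and 185 were open, and 174 in both (48.5%). Open genes near a start had median percentiles of 95.4 and 93.8, and those farther away 88.5 and 84.5. Most open tRNA genes thus had no protein-coding start within 1 kb.

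Peaks mostly covered the gene itself. Among open genes, 87.8% and 87.1% had a peak over the gene body, and at 168 and 165 genes a peak held the whole body. Windows often held more than 1 peak, in 63.0% and 56.9% of open genes. The midpoint of the strongest peak had a median of -12.5 bp from the gene start in library 1 and 27.5 bp in library 2.

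Genes open in 1 library only mostly had weak peaks. The 17 open in library 1 alone had a median percentile of 36.4 there, and the 12 open in library 2 alone had 24.5. The upper quartiles were 60.7 and 42.1, so some peaks lay above the middle of their list. Of the 17 genes 14, and of the 12 genes 5, also had no peak in the longer list of the other library. The strongest peak was at n-TPagg6, a proline gene 356 bp from the start of the cone opsin gene Opn1sw. Its signal was 6.60 in library 1 (percentile 95.2), with 6 footprints and 618 FDR intervals, where open windows had medians of 7 and 628.5. Library 2 listed no peak, footprint or FDR interval in the window. The next strongest of that kind were n-TVaac6 (1.72), n-TGgcc10 (1.67, in an intron of Vac14), n-TVcac4 (1.64) and n-TEttc8 (0.941). n-TVaac6 and n-TVcac4 lie in the same cluster of chromosome 13. The strongest of the genes open in library 2 with no peak in the other was n-TRtct3 at 2.80 (percentile 66.7), with 5 footprints, followed by n-TQctg10 (0.940), n-TGgcc1 (0.886), n-TDgtc11 (0.732) and n-TVaac5 (0.670). n-TRtct3, n-TQctg10 and n-TDgtc11 lie in a single cluster of chromosome 13. The marker genes named above also differed between these libraries, and their part in these differences was not tested.

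Footprints lay mainly over the B box and just before the gene in both libraries. This was measured where a peak held the whole gene body. The B box carried a footprint in 141 of 149 genes with a match (94.6%) in library 1 and in 150 of 150 (100%) in library 2. Footprints covered 89.4% and 97.3% of B box bases, against 16.1% and 21.4% of the bases of all peaks. Among the 124 genes measurable in both libraries, 119 had a B box footprint in both. Among genes with a B box match and no peak in the window, 7 of 158 and 8 of 162 had one. The footprints over the B box had a median length of 32 and 38 bp, against 10 bp for all footprints. In each gene the footprint with the largest overlap with the box was taken. That choice favours long footprints and was not made for the 10 bp. They reached a median of 11 bp beyond the box on each side in library 1. In library 2 they reached 13 bp before and 13.5 bp after it.

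The stretch just before the gene was also protected, and the A box was covered far less than the B box. The 50 bp before the gene held a footprint in 87.5% and 92.7% of genes, and 55.0% and 54.9% of these bases were covered. From 51 to 100 bp before the gene the covered share was 14.7% and 11.3%. Many of these flanking bases lie outside peaks, so they are not compared with the share over peak bases. The A box was touched by a footprint in 35.7% and 34.5% of genes, and 14.9% and 20.4% of its bases were covered. The 50 bp after the gene had 10.2% and 21.2% covered. From 51 to 100 bp after it the values were 6.65% and 22.5%, lower in library 1 than in library 2. The depth that sets footprint detection is unknown, and its part in this difference was not tested.

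Base by base, over 158 and 156 genes without an intron, coverage was highest at position 62 of the gene (90.5%) in library 1 and at position 52 (98.1%) in library 2. It fell to 0% at position 30 and to 2.56% at position 21. Before the gene it peaked at -25 (72.2%) and -37 (83.3%). A lower rise lay at -94 (33.5%) and -98 (27.6%), and another after the gene at position 122 (23.4%) and 123 (60.9%). Around the start itself the libraries differed: at the last base before the gene coverage was 46.8% in library 1, while the highest value in the last 10 bp was 16.0% in library 2.

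**Figure D2:**
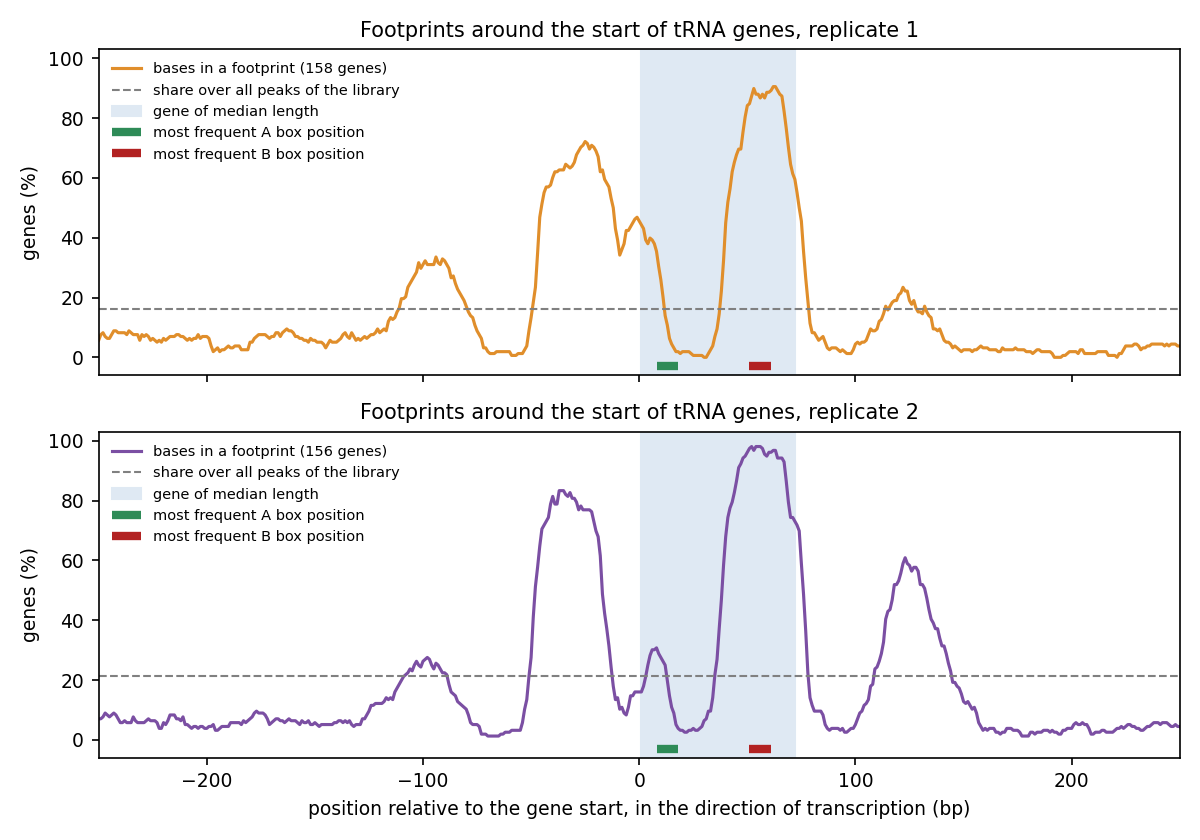
Share of tRNA genes whose base lies in a footprint (vertical axis, %) by position from the gene start in the direction of transcription (horizontal axis, bp), for genes without an intron whose body lies within a peak: 158 genes in replicate 1 (top), 156 in replicate 2 (bottom). The shaded span is a gene of 72 bp, bars mark the most frequent A and B box positions, and the dashed line is the share over bases of all peaks (16.1% and 21.4%), which flanks only partly within peaks do not match; the highest values in the gene, 90.5% and 98.1%, lie at positions 62 and 52.

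The genes printed above show these places one by one, though not every place at every gene. At n-TStga3 a footprint ran from position 45 to 81 in library 1 and from 34 to 85 in library 2, over a B box that starts at position 61. Before the gene it had footprints from -47 to -11 and from -48 to -16. At n-TLaag4 the B box footprint ran from 49 to 86 and from 47 to 87, and a further one before the gene, from -42 to -24, was listed in library 2. n-TWcca2 had footprints from 50 to 66 and from 34 to 56 at its B box. n-TRtct3 had one from 53 to 90 in library 2, the library in which it was open. n-TPagg6 had only a 7 bp footprint there, from 51 to 57, in library 1. n-THgtg5, although open in both, had none over the gene in library 1 and an 8 bp one from 50 to 57 in library 2. Some footprints also reached the A box, which starts at position 8 in these genes. At n-TStga3 they ran from 3 to 10 in library 1 and from 2 to 14 in library 2. At n-TLaag4 they ran from -4 to 14 and from 2 to 14, and at n-TRtct3 from -4 to 17 in library 2. n-TWcca2, n-TPagg6 and n-THgtg5 had none over the A box.

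Copies of a gene can only be told apart by reads that reach into the flanks. Uniqueness was therefore measured as the share of 32-base words of a window that occur once in the genome. What was done with reads of several equal placements was not given in the sources used here. Within the gene body itself most genes had no unique word, and the B box footprint was listed in 93.3% of 105 and 100% of 109 such genes. It was listed in 27 of 27 and 25 of 25 genes with at least 50% unique words in the body. The part of reads with several placements in these footprints was not tested.

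Windows with little unique sequence were almost never open. Of 89 genes whose window was under 80% unique, 4 and 7 were open in libraries 1 and 2, 4 in both, and 82 in neither. Of 314 genes at or above 80%, 226 and 218 were open, 209 in both (66.6%) and 79 in neither (25.2%). Whether the former are closed or could not be read was not tested.

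Open genes had more CpG in their flanks. CpG is the dinucleotide at which mouse DNA is mainly methylated. Genes open in both libraries had a median of 3.5 CpG per 100 bp of flank, those open in library 1 alone 1.9, those open in library 2 alone 1.65, and those open in neither 1.1. With windows at least 80% unique and more than 1 kb from a protein-coding start, 143 of 168 genes (85.1%) with at least 2 CpG per 100 bp were open in both, against 29 of 107 (27.1%) with fewer. For each library these counts were 151 and 146 of 168, against 37 and 35 of 107. GC content differed little, with medians of 45.4% for genes open in both and 44.1% for those open in neither. A TTTT run within 100 bp followed 212 of the 213 genes open in both libraries and 135 of the 161 open in neither. Of the 32 genes without one, 1 was open in both. With the limit at 20 bp, 192 of 327 genes with a run (58.7%) and 21 of 76 without one (27.6%) were open in both. These TTTT counts include windows under 80% unique and the cysteine genes, whose part was not tested. The plot of flank CpG and unique sequence by state shows both.

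**Figure D3:**
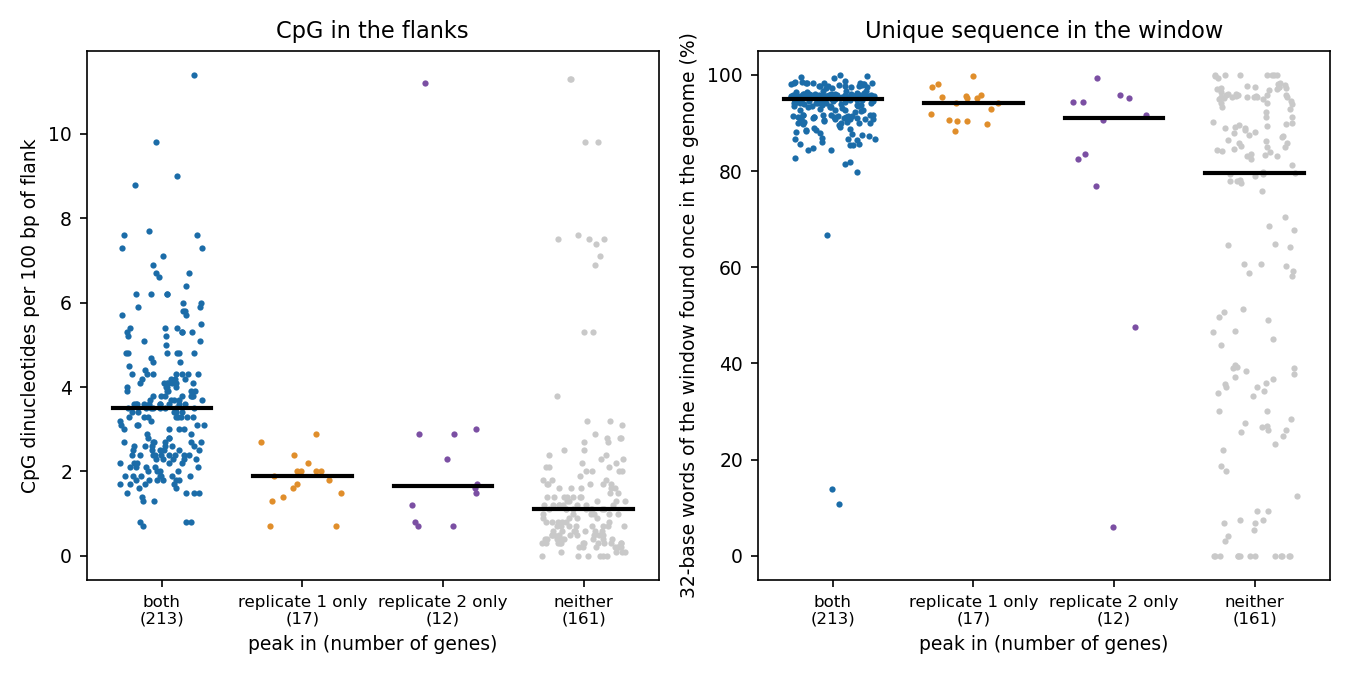
CpG dinucleotides per 100 bp of the flanks (left) and share of 32-base words of the window that occur once in the genome (right, %), by whether a tRNA gene had a peak in both libraries (213 genes), replicate 1 only (17), replicate 2 only (12) or neither (161). Points are genes and black bars medians, which for CpG are 3.5, 1.9, 1.65 and 1.1.

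The next question was how the amino acid families differed. At least 50% of genes were open in both libraries in 15 of 20 families. Arginine had the highest share, 20 of 24 genes (83.3%), followed by serine with 17 of 22, proline with 12 of 16 and tryptophan with 6 of 8. Leucine had 18 of 25, phenylalanine 5 of 7, threonine 12 of 17, tyrosine 7 of 10, isoleucine and methionine 10 of 16 each, and glutamate 12 of 20. The methionine count does not separate initiator from elongator genes. Glycine (16 of 28), aspartate (9 of 16), asparagine (7 of 13) and valine (11 of 22) were close to the share over all genes. Below 50% were glutamine (7 of 16), lysine (11 of 26), alanine (13 of 33), histidine (4 of 11) and cysteine (6 of 57). The counts of each library lay at most 4 genes above those in both, with alanine at 17 and 14 and valine at 15 and 13.

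Families with few open genes differed in the signal of those that were open. The 4 open histidine genes had signals from 5.59 to 8.66 in library 1 and from 7.49 to 15.7 in library 2. Their median percentiles were 95.6 and 93.0. Of these genes, 3 lie within 2546 bp on chromosome 2, where neighbours can share a peak, so the values are not independent. The 6 open cysteine genes ran from 2.90 to 6.66 and from 4.23 to 12.4. Lysine, with medians of 3.13 and 4.94, ran from 1.96 to 5.16 in library 1, below all 4 histidine genes, and from 1.38 to 14.4 in library 2, where the ranges overlapped. Tryptophan had medians of 7.88 and 7.99.

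Nearly every kind of tRNA had an open gene. At least 1 gene was open in both libraries in 46 of the 48 family and anticodon groups, and all genes were open in both in 8. The 2 groups with none, chosen after their values were seen, hold 1 gene each and rest on the annotation of that gene. They are histidine with anticodon ATG and serine with anticodon GGA, the gene n-TSgga1 shown above. Within a family anticodons differed. Alanine AGC genes were open in both libraries at 8 of 13, alanine CGC at 2 of 9 and alanine TGC at 3 of 11. The windows of these 3 groups had median shares of 94.3%, 33.8% and 86.2% unique words. Lysine TTT stood at 6 of 10 and lysine CTT at 5 of 16, with median unique shares of 93.3% and 86.6%. The part of unique sequence in these contrasts was not tested. All 5 arginine TCG and all 5 leucine AAG genes were open in both.

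**Figure D4:**
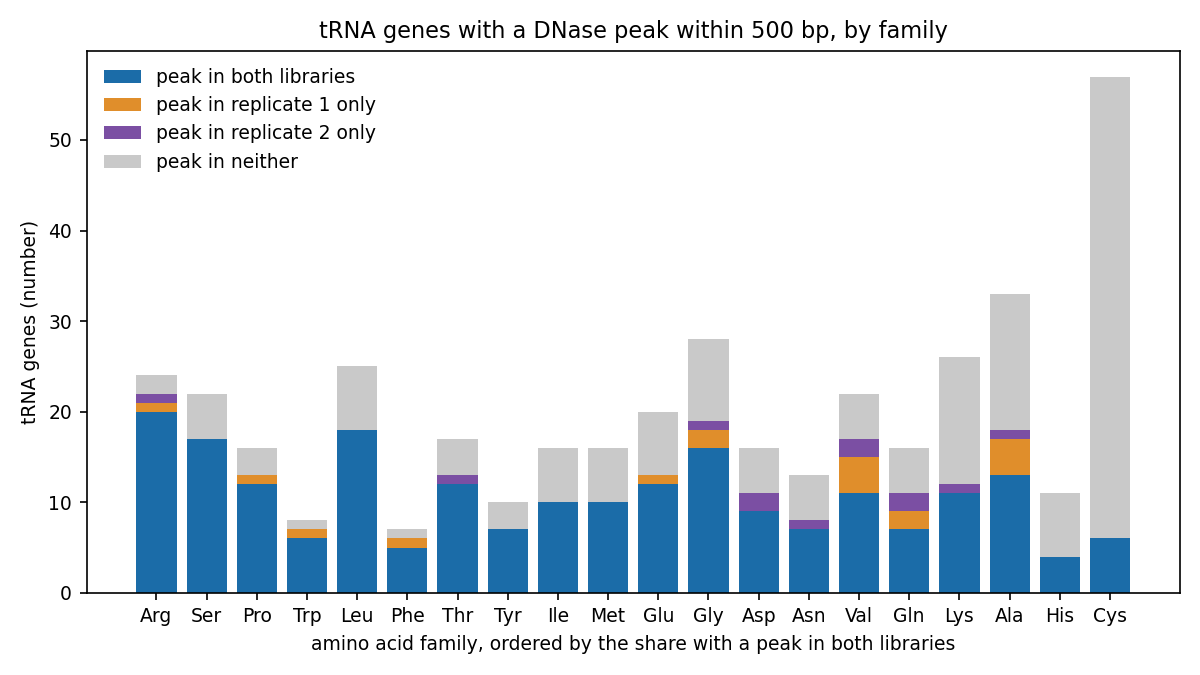
Number of tRNA genes (vertical axis) in each amino acid family (horizontal axis), split into genes with a peak within 500 bp in both libraries, in 1 only, or in neither, and ordered by the share in both. Arginine (20 of 24) leads and cysteine, with 6 of 57, is last.

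Cysteine was the largest family and held the most genes open in neither library, 51 of 57. Of its 57 genes, 49 lie on chromosome 6 between 47978997 and 48363603, and 1 of those was open in both libraries. Their windows had a median of 49.7% unique words, but among the 16 that were at least 80% unique, 1 was likewise open. Their flanks held a median of 0.4 CpG per 100 bp. Of 5 cysteine genes on chromosome 11, 4 were open in both, with 3.1 CpG per 100 bp, and so was the single gene on chromosome 17. Both cysteine genes on chromosome 9 were closed. Without cysteine, 207 of 346 tRNA genes (59.8%) were open in both libraries. The B box word of many cysteine genes, GGTTCAAATCC, was found in 71 tRNA genes, of which 20 were open in both (28.2%). GGTTCGAATCC, found in 68, was open in 48 (70.6%), and GGTTCGATTCC, found in 61, in 31 (50.8%). These shares count the cysteine arrays again. The words were not compared without cysteine or among unique windows alone, so an effect of the word was not tested.

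Identical genes did not always share their state. Of 56 sequences present in 2 or more genes, 23 were open in both libraries at every copy, 7 were open at none, and 16 had at least 1 copy open in both and 1 in neither. Counting only copies with windows at least 80% unique, there were 48 such sequences, of which 28 were open at every copy, 1 at none and 9 were mixed. The most frequent sequence, a cysteine gene with 29 copies, was open at none. An aspartate sequence with 13 copies was open in both at 8 and closed at 3, and the histidine sequence printed above was open at 4 of 8 and closed at the other 4. Of that pair, n-THgtg5 had signals of 8.66 and 15.7 and a window 93.7% unique, with 3.9 CpG per 100 bp of flank. n-THgtg6 had 3.2 CpG per 100 bp and a window 89.9% unique.

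The last question was how openness followed genomic clusters. Genes within 10 kb of each other were chained into 64 clusters of 2 or more, holding 293 genes, and 110 genes stood alone. Of single genes 55 were open in both libraries, and of genes in clusters of 2 to 4 67 of 104 (64.4%). Of genes in clusters of 5 or more, 91 of 189 were (48.1%). The latter include cysteine arrays of chromosome 6 with 22, 10 and 9 genes, none of them open. The windows of these arrays had median unique shares of 44.5%, 36.4% and 60.6%, and their part in the contrast was not tested. The 22 clusters of 5 or more were often uniform. Among 229 pairs of neighbours in a cluster, both were open in 116 and 110 pairs, neither in 90 and 88, and 1 of the 2 in 23 and 31. Neighbouring windows can overlap and share a peak.

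In 8 of those 22 clusters every gene was open in both libraries. They were chr13:21160785-21172942 (9 genes), chr13:23517203-23530419 (8), chr11:69037003-69041897 (7), chr11:69110465-69125248 (7) and, with 5 genes each, chr1:171033942-171045055, chr1:171101838-171111515, chr3:96497781-96501518 and chr5:125404250-125409543. The first chromosome 11 cluster holds 7 genes of 7 families within 4895 bp, with signals from 4.23 to 9.45 in library 1 and from 5.62 to 9.75 in library 2. The second, also of 7 families, had medians of 5.47 and 5.44. On the whole of chromosome 11, 41 of 47 tRNA genes were open in both.

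Another 4 clusters had no open gene in either library. These were the cysteine arrays of chromosome 6 at chr6:48244316-48317586 (22 genes, the largest cluster), chr6:48332840-48363603 (10) and chr6:48133937-48164172 (9), and chr3:96451425-96464043 with 3 histidine and 2 asparagine genes. Their windows had median unique shares of 44.5%, 36.4%, 60.6% and 0%. The other 2 of the largest clusters were mixed. At chr1:171064164-171081946, 2 of 15 genes were open in both libraries and 12 in neither, with a median unique share of 6.84%. At chr13:21907111-21940995, 5 of 15 were open in both, 3 in library 2 alone and 7 in neither, with a median unique share of 95.1%. On chromosome X 1 of 17 genes was open in both, with a median unique share of 33.8%.

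In 2 clusters of 5 or more genes, singled out after their values were seen, open genes were found in 1 library only with the shorter lists. At chr13:23298781-23317538, 3 of 6 genes were open in library 1 (signals from 1.64 to 1.72) and none in library 2. At chr3:96332740-96351237, 3 of 5 were open in library 2 (0.709 to 1.45) and none in library 1. With the longer lists the former counts stayed at 3 and 0, while the latter cluster had 3 open genes in each library. The former signals lie above the median of all peaks of library 1 (1.28) and the latter below that of library 2 (1.71).

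**Figure D5:**
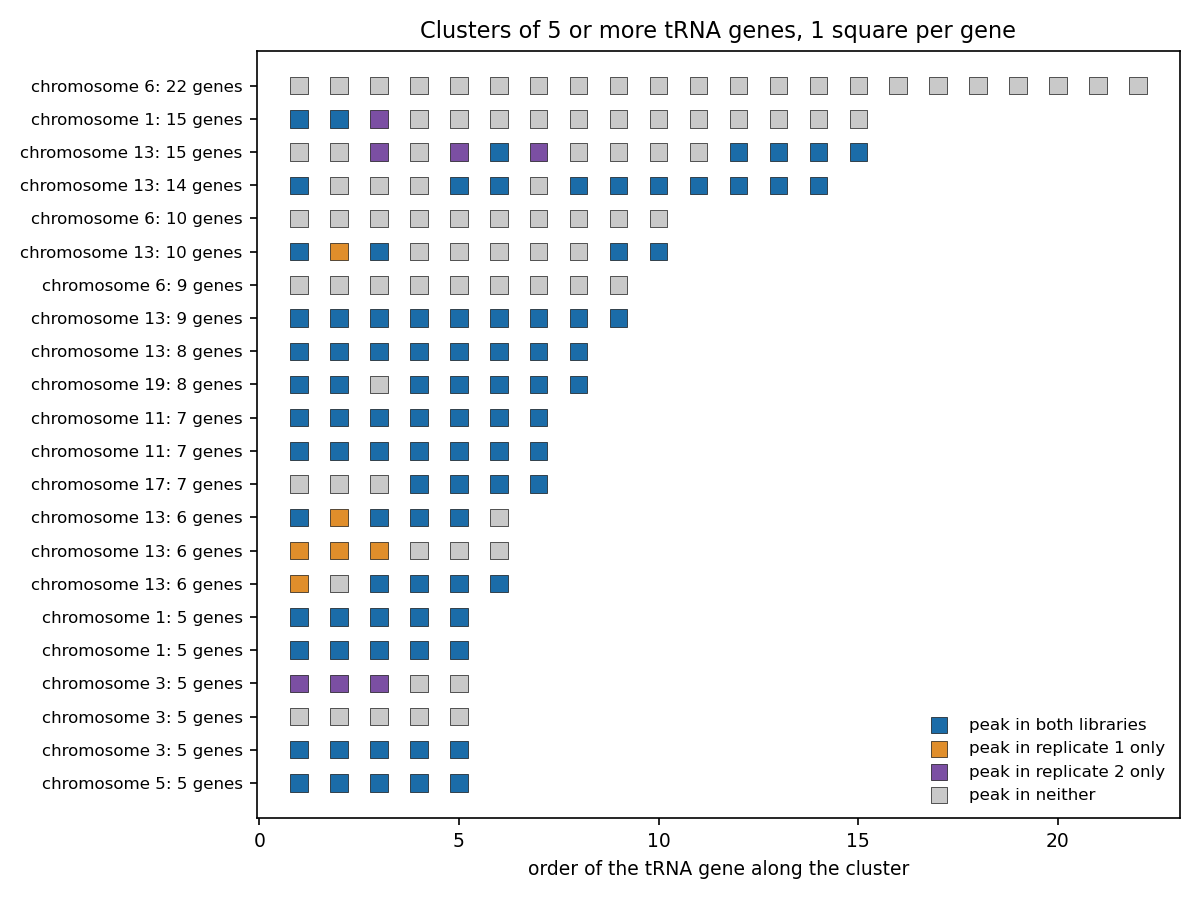
The 22 clusters of 5 or more tRNA genes, 1 row per cluster and 1 square per gene in chromosome order (horizontal axis: order in the cluster), coloured by whether the gene had a peak in both libraries, in 1 only or in neither. In 8 rows every gene was open in both and in 4 rows none was.

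Genes of the wider pathway were open in both libraries throughout. All 36 genes of the polymerase III machinery were open by the 1 kb rule in each library, against 57.1% of protein-coding genes in both. Their signals had medians of 6.84 (2.07 to 12.0) and 11.2 (3.92 to 23.8). Gtf3c1, which encodes the TFIIIC subunit that binds the B box, had 9.12 and 23.8. Brf1, a subunit of TFIIIB, had 6.19 and 16.7, and Maf1, a repressor of the polymerase, had 8.63 and 22.8. All 20 cytosolic aminoacyl-tRNA synthetase genes, which charge tRNAs with amino acids, were open in both, and so were all 16 genes of tRNA end processing, splicing and export. The 3 polymerase III genes with promoters outside the gene, Rmrp, Rpph1 and Rn7sk, were open as well, with signals of 6.89, 8.66 and 6.77 in library 1 and of 20.8, 16.6 and 11.8 in library 2. These lists are of widely expressed genes and were chosen with results of these data known.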

How the data were processed

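DNase-seq was measured in 2 libraries of mouse thymus, and the files are on mm10 per the labels. The deposited peak lists give a signal for each peak. The deposited footprint lists give a score that is 0.01 throughout and was not used. The deposited FDR tables give a p-value-like FDR per interval. Aligner, callers, thresholds and signal scaling were not given in the sources used here. Per the deposited notes, lists derive from the filtered alignment of each library.

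The tRNA genes came from RefSeq (GRCm38.p6), protein-coding genes from GENCODE vM21. Overlaps of at least 1 bp, percentiles, 32-base word counts and box matches were computed with Python 3.11.15, pandas 2.3.3 and bedtools 2.31.1, and overlap code was tested on simulated peaks. Genes were counted, with no test. Members and lists were chosen with earlier results of these data known. Named were the 5 genes with the highest mean percentile (1 per shared peak), up to 5 per library with no peak in either list of the other, the 3 largest clusters, and clusters of 5 or more open at all or no genes. Alternatives changed flanks, lists, overlaps, gene sets and libraries. The subsets with unique windows or without cysteine, and most single-library values, were added after seeing the data. The B box footprint shares and the split by flank CpG were not among the planned results either. Counts cover a complete annotated set, so no sampling interval is given.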

Additional observations from a re-analysis of the deposited data

How the results depend on the processing

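Of 75 alternative values, 72 stayed within the tolerance. A change of direction was possible only for the difference between the libraries, which kept its sign. The B box footprint shares, 94.6% and 100%, could not rise beyond the tolerance. The tolerance was 1.5 times for shares and 1 SD of the 2 libraries for percentiles (2.74) and for the difference in shares. The share of tRNA genes open in both libraries, 52.9%, ranged from 43.4% (gene body alone) to 66.6% (windows at least 80% unique), and was 55.8% and 57.1% for a single library. The difference between the libraries, replicate 2 minus replicate 1, was -1.24 points and stayed between -0.452 and -1.99. Genes with a footprint over the body in both libraries went from 49.1% of 403 to 97.8% when the 138 genes with the body within a peak of each library were counted, which leaves out genes without such a peak. Among genes whose sequence is annotated once the share was 37.0%. The median percentile moved from 89.7 to 86.2 in library 1 with the peak nearest to the gene start, and from 85.9 to 89.8 in library 2 with the longer list. No paired analysis was possible because there is only 1 group. Depth is unknown, so a window without a peak may be closed or too thinly covered.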

Other observations

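Introns were annotated in 22 of the 403 tRNA genes, with lengths from 12 to 23 bp and a median of 16.5 bp. Of these 15 were open in library 1, 16 in library 2 and 15 in both (68.2%), against 198 of 381 genes without an intron (52.0%). The cysteine family, with 6 of 57 open in both, was not set apart in this contrast, and its part was not tested. By position, 370 tRNA genes lie outside protein-coding genes, and 197 of them were open in both (53.2%). Another 28 lie in an intron of a protein-coding gene, with 12 open in both (42.9%), and 5 in an exon or UTR, with 4. Genes with a B box match and those without were open in both libraries at 191 of 363 (52.6%) and 22 of 40 (55.0%).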
